A study of Mus musculus with 12 samples.

Results

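Interferon-stimulated genes, interferon-inducible GTPases and MHC class I genes were followed in sorted mouse hepatocytes. The hepatocytes were with or without Yap/Taz knockout, uninjured or 48 h after a toxic liver injury. The 44 genes were taken from the table of counts by their symbols, as known targets of type I and type II interferon and as genes of MHC class I. Of these, 43 were among the 37141 genes of the table, and Gbp6 was not analysed here. A filter on low counts left 40 of the 44 for testing, beside 10780 genes in all, while Oas1a, Oas3 and Mx1 fell below it. After injury 4 rose (Dhx58, Zbp1, Ifi44 and Rtp4) and H2-K1 fell in knockout hepatocytes, 12.5% of the 40 beside 17.8% of all genes tested. In control hepatocytes Iigp1, H2-K1, B2m and Irf1 fell and none rose, 10% beside 22.5%. No member passed the threshold between genotypes, in either injury state, and neither did any of the 10780 genes.

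Type I interferons are secreted when cells sense foreign or misplaced nucleic acid. They signal through a receptor-bound pair of kinases to a complex containing STAT2 and IRF9, which binds the interferon-stimulated response element (ISRE). Interferon gamma acts mainly through the gamma-activated site (GAS), and IRF1 carries part of that response to the genes for MHC class I and the immunity-related GTPases. Hepatocytes express receptors of both kinds and present peptides on MHC class I, at a level that interferon raises.

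All mice had the strain Yapflox/flox; Tazflox/flox. The Yap/Taz KO + CCl4 mice received 5e11 genome copies of an AAV8 vector that expresses Cre from the hepatocyte-specific TBG promoter. They were given carbon tetrachloride (CCl4), a toxin that kills pericentral hepatocytes, 3 weeks later, at 1 ml/kg in corn oil by intraperitoneal injection, and livers were taken 48 h after it. The ctrl + CCl4 mice, of WT effective genotype, received CCl4 alone. Yap/Taz KO mice received the Cre vector alone and were killed 3 weeks later, and ctrl mice, also WT, have no treatment in the labels. Each group had 3 libraries, made from 500000 sorted cells each. The labels name no vector without Cre and no oil injection for any group, so loss of Yap and Taz cannot be told apart from exposure to the vector, nor CCl4 from its injection. Neither age nor sex of the mice was available here. Nothing states that the 3 libraries of a group came from separate mice, so the p-values reflect only how these libraries vary, and that variation may be technical.

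Library totals lay between 1617761 and 3028951 counts, and the members held 0.458% to 0.796% of them. B2m, H2-K1, H2-D1 and Iigp1 supplied 69.9% to 89.7% of the members' counts, so most other members rest on few reads. Yap1 was at 14.2 to 14.8 CPM (counts scaled to the library total after TMM adjustment) in Yap/Taz KO + CCl4 and 50.6 to 65.7 CPM in ctrl + CCl4, and at 9.65 to 22.2 CPM in Yap/Taz KO and 40.3 to 71.8 CPM in ctrl. Wwtr1, which encodes Taz, was at 19.9 to 25.3 CPM in Yap/Taz KO + CCl4 and 32.6 to 34.8 CPM in ctrl + CCl4, and at 10.1 to 18.3 CPM in Yap/Taz KO and 24.2 to 57.6 CPM in ctrl. Neither passed the threshold (edgeR adjusted p from 0.0995 to 0.983). All 10 hepatocyte markers were detected in each group, and the sorts held other cells too: ctrl library 1 stood apart, with erythroid markers summing to 1584 CPM against 19.6 and 154 CPM in the other ctrl libraries, and with 2795 CPM of macrophage markers against 516 and 643 CPM. Some members' results are also given without ctrl library 1, or without Yap/Taz KO library 2, which was low in most members. Tests of genes outside the 44 are given with all libraries only.

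Sequence upstream of the start was examined because the interferon response acts through short DNA elements. RefSeq promoters (GRCm38.p6, 250 bases before to 50 after the start) were found for 34 of the 44 members. The ISRE core GAAANNGAAA, searched on both strands, stood in 19 of these 34 (55.9%) and in 3.99% of all 27025 genes with a promoter. The GAS core TTCNNNGAA, which reads the same on both strands, stood in 9 members (26.5%) and in 9.55% of all genes. The following lines give a window of 100 bases, placed around the cores upstream of the start, for 6 members. They are those with the smallest adjusted p in any comparison among members with an ISRE core there. The windows show how the element differs in number and strand, and a link to expression was not tested. Each is written 5′ to 3′ along the gene's own strand, with capitals marking ISRE cores, which run together where they overlap.
B2m: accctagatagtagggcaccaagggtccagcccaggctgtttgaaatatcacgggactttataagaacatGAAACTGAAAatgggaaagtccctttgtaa
Irgm2: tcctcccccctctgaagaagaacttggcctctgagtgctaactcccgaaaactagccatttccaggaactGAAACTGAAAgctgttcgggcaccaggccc
Ifit1: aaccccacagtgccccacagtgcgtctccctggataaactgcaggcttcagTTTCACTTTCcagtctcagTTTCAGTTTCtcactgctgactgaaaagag
Isg15: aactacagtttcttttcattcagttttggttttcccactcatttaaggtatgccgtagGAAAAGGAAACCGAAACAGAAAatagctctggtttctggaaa
Ifit3: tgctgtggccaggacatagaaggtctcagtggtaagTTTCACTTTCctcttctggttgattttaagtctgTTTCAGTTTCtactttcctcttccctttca
Ifit3b: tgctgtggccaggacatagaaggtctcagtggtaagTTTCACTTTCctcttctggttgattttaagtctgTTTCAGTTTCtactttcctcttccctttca

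The B2m window lies at chr2:122147478-122147577 (+ strand), Irgm2 at chr11:58214843-58214942 (+), Ifit1 at chr19:34640734-34640833 (+), Isg15 at chr4:156200855-156200954 (−), Ifit3 at chr19:34583337-34583436 (+) and Ifit3b at chr19:34607733-34607832 (+). Their distances from the start differ: the windows begin 209 bases before it in B2m, 134 in Irgm2, 155 in Ifit1, 136 in Isg15, 192 in Ifit3 and 224 in Ifit3b. B2m and Irgm2 each held 1 core, in the direction of transcription, and the core itself was the same in both. Isg15 held 3 overlapping cores in that direction, while Ifit1, Ifit3 and Ifit3b each held 2 on the opposite strand. The windows of Ifit3 and Ifit3b, neighbouring genes on chromosome 19, were identical in 100 of 100 bases. Of the 8 members that passed the threshold in an injury comparison, 4 had a promoter entry (B2m, H2-K1, Ifi44 and Irf1), and of these B2m held an ISRE core. A match describes the letters in the window and shows no binding.

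**Figure D1:**
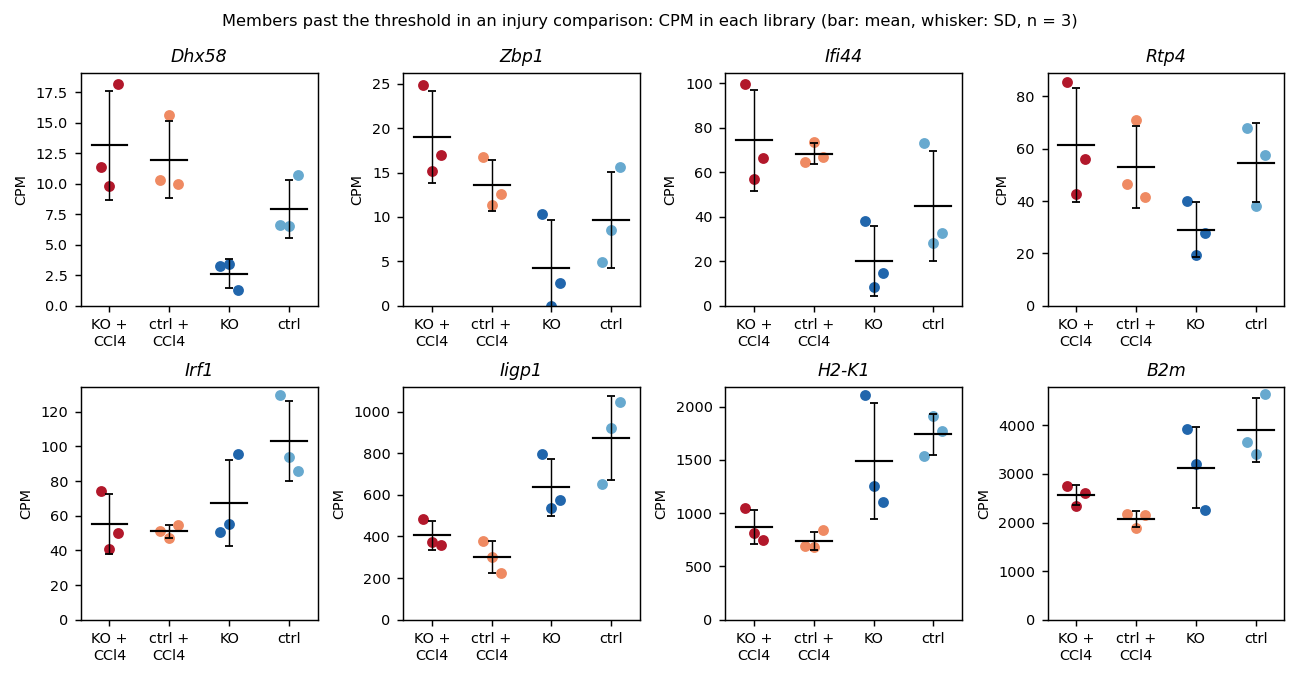
CPM of the 8 members that passed the threshold in an injury comparison, in each library of the 4 groups, on axes that start at 0 with their own scale for each gene; points are libraries, bars the mean and whiskers the SD (n = 3). Dhx58, Zbp1, Ifi44 and Rtp4 are lowest in Yap/Taz KO, while Iigp1, H2-K1 and B2m are lower in both injured groups than in ctrl.

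The first comparison asks what CCl4 injury changes in Yap/Taz KO hepatocytes. In Yap/Taz KO + CCl4 against Yap/Taz KO, 4 of 40 tested members rose (10%) beside 9.42% of all genes tested, and 1 fell (2.5%) beside 8.35%, by edgeR's quasi-likelihood test with Benjamini-Hochberg adjustment at 0.05. The share past the threshold in either direction was 12.5% of members and 17.8% of all genes, so the members were not called more often than other genes. Their log2 fold changes were above 0 for 32 of 40, beside 51.7% of all genes, with a median of 0.49 beside 0.03. At an unadjusted p under 0.05, 8 members were higher (20%) and 2 lower (5%), beside 16% and 14.6% of all genes. Groups did not overlap for 10 higher members (25%) and 2 lower ones (5%), beside 21.2% and 18.1%. The count of calls rested on single libraries: it was 1 (Dhx58) without Yap/Taz KO + CCl4 library 1 and 10 without Yap/Taz KO library 1. It was 2 without Yap/Taz KO + CCl4 library 3, Yap/Taz KO library 2 or Yap/Taz KO library 3, and 3 without Yap/Taz KO + CCl4 library 2 or any 1 of the ctrl + CCl4 libraries, which enter the shared estimate of spread. The median was 0.25 without Yap/Taz KO + CCl4 library 1 and 0.94 without Yap/Taz KO library 1. In bulk RNA of sorted cells, a change in the number of cells of a type and a change in RNA per cell cannot be told apart.

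Of the 4 tested sensors, Dhx58 and Zbp1 rose, beside 9.42% of all genes. Dhx58 encodes LGP2, a RIG-I-like receptor that modulates the signalling of its relatives. It had 11.4, 9.79 and 18.2 CPM in Yap/Taz KO + CCl4, against 3.25, 3.38 and 1.28 CPM in Yap/Taz KO. All 3 injured libraries stood above all 3 uninjured ones, and the log2 fold change was 2.32 (SE 0.49, edgeR adjusted p = 0.00431). Zbp1, a sensor of Z-form nucleic acid that can trigger necroptosis, had 24.9, 15.2 and 17.0 CPM in Yap/Taz KO + CCl4, against 10.3, 0 and 2.56 CPM in Yap/Taz KO. Those groups did not overlap either, although the uninjured libraries ranged widely, and the log2 fold change was 2.19 (SE 0.71, edgeR adjusted p = 0.0467). The Zbp1 call ended when any 1 of the 6 injured libraries, or Yap/Taz KO library 2 or 3, was left out (edgeR adjusted p from 0.0609 to 0.151), and in a fit of the 6 compared libraries alone (0.0508), while Dhx58 was called in all 20 alternatives. The Zbp1 value moved with the uninjured libraries, to 1.599 without Yap/Taz KO library 2 and 3.78 without library 1, and was 3.34 by limma-voom. The other sensors were nearly level: Ddx58, which encodes RIG-I, had a log2 fold change of 0.43 and Ifih1, which encodes MDA5, one of -0.14 (edgeR adjusted p = 0.359 and 0.782).

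Of the 10 tested antiviral effectors outside the named families, all had log2 fold changes above 0 and 2 rose, beside 51.7% and 9.42% of all genes. Ifi44, which encodes an interferon-induced cytoplasmic protein, had 99.8, 56.9 and 66.3 CPM in Yap/Taz KO + CCl4, against 37.9, 8.2 and 14.5 CPM in Yap/Taz KO. The groups did not overlap and the log2 fold change was 1.89 (SE 0.46, edgeR adjusted p = 0.0111). Without Yap/Taz KO + CCl4 library 1 the adjusted p was 0.0537, and without Yap/Taz KO library 3 it was 0.052. Rtp4, a receptor chaperone that also restrains flaviviruses, had 85.5, 42.7 and 55.9 CPM in Yap/Taz KO + CCl4, against 40.1, 19.3 and 27.7 CPM in Yap/Taz KO. Its lowest injured library stood just above its highest uninjured one, and the log2 fold change was 1.08 (SE 0.34, edgeR adjusted p = 0.0392). The call ended without Yap/Taz KO + CCl4 library 1 (0.77, adjusted p = 0.186) or library 3 (0.0689), and without Yap/Taz KO library 2 (0.162) or library 3 (0.106). The other 8 lay between 0.14 for Cmpk2 and 1.22 for Trim30a (log2), and Bst2, which encodes the virus-tethering protein tetherin, was at 0.34 (edgeR adjusted p = 0.449).

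The ISG15, IFIT and OAS members did not pass the threshold, and all tested but Ifit1 had log2 fold changes above 0, beside 51.7% of all genes. Isg15 encodes the ubiquitin-like modifier, and its window above holds 3 ISRE cores. It had 22.7, 19.3 and 23.6 CPM in Yap/Taz KO + CCl4, against 16.2, 5.31 and 6.39 CPM in Yap/Taz KO. The groups did not overlap, but the log2 fold change of 1.25 (SE 0.56) had an edgeR adjusted p of 0.142. It was called in 3 of 20 alternatives (library totals, no low-count filter and the 6 compared libraries alone; adjusted p from 0.0345 to 0.0485). Ifit3 was also called in 3 (library totals, the replicate block, and without Yap/Taz KO library 1, where it was at 2.06). Usp18, the protease that removes ISG15 and dampens receptor signalling, was at 0.51 (log2; edgeR adjusted p = 0.491). Among the RNA-binding IFIT proteins, Ifit3b, Ifit3 and Ifit2 lay between 1.00 and 1.46 and Ifit1 at -0.06 on the log2 scale. The tested OAS family members (Oas2, Oasl1 and Oasl2), of the 2′-5′ oligoadenylate synthetase family, lay between 0.64 and 1.91, also without a call.

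Of the transcription factors, none passed the threshold in Yap/Taz KO + CCl4 against Yap/Taz KO. Irf8, a factor of the macrophage and dendritic cell lineages, had 93.4, 60.3 and 76.0 CPM in Yap/Taz KO + CCl4, against 38.4, 14.0 and 27.7 CPM in Yap/Taz KO. It had the highest log2 fold change of the 5 (1.52, SE 0.58, edgeR adjusted p = 0.0875). Irf8 was called in 8 of 20 alternatives, among them DESeq2 (adjusted p = 0.0331), limma-voom (0.044), the replicate block (0.0305), library totals (0.0397), the 6 compared libraries alone (0.00679), and leaving out ctrl library 1 (0.00461) or 2 (0.0295). Irf7, which amplifies type I interferon production, was at 0.78, and its 3′ end overlaps exons of Phrf1 on the opposite strand, so their reads cannot be told apart if strand was not used in counting. Irf9 was at 0.27, Irf1 at -0.29 and Stat2, the partner of IRF9, at -0.72 (log2).

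Of the MHC class I members H2-K1 was called, and of the IRG and GBP GTPases none was. H2-K1, a classical class I heavy chain, had 1047, 816 and 745 CPM in Yap/Taz KO + CCl4, against 2109, 1258 and 1103 CPM in Yap/Taz KO. It fell by 0.78 on the log2 scale (SE 0.25, edgeR adjusted p = 0.0411) with no overlap between the groups. When libraries were scaled by their totals instead of TMM, this change was -0.39 (edgeR adjusted p = 0.276). The call also ended when any 1 of the 6 injured libraries, or Yap/Taz KO library 1 or 2, was left out (edgeR adjusted p from 0.0504 to 0.203), with RLE factors (0.0505) and in a fit of the 6 compared libraries alone (0.0596), with a change of -0.44 without Yap/Taz KO library 1. Iigp1, an immunity-related GTPase that attacks the vacuoles of intracellular parasites, had 482, 374 and 358 CPM in Yap/Taz KO + CCl4, against 794, 535 and 577 CPM in Yap/Taz KO, again without overlap. Its log2 fold change of -0.65 (SE 0.25) did not pass (edgeR adjusted p = 0.0916). Of the 8 tested GTPases, 6 were above 0 (75%, beside 51.7% of all genes), with a median of 0.21 and the highest values in Ifi47 and Igtp (both 0.60) and Irgm2 (0.47). B2m, the light chain shared by class I molecules, was at -0.29, and Tap1, the peptide transporter, and H2-D1, the other classical heavy chain, were at 0.63 and 0.22 (log2).

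The same comparison in control hepatocytes gave 4 calls, all lower. In ctrl + CCl4 against ctrl, 0 of 40 members rose beside 10.5% of all genes, and 4 fell (10%) beside 12%, so the share of members called was again not above that of all genes (22.5% in either direction). At an unadjusted p under 0.05, 1 member was higher (Parp14, 2.5%) and 7 were lower (17.5%), beside 16.3% and 17.3% of all genes. Groups did not overlap for 3 higher members (7.5%) and 8 lower ones (20%), beside 19.1% and 17.5%. By DESeq2, 5 members fell and none rose, and by limma-voom 5 fell and Irf8 rose. Irf8 was also called higher with the replicate block (adjusted p = 0.0279), Irf8 and Trim30a with no low-count filter and without ctrl library 1, and Parp14 with library totals (1.13, adjusted p = 0.0303). The median log2 fold change was -0.03 beside 0.03 for all genes, with 19 of 40 members above 0. Without Yap/Taz KO library 1, which enters through the shared spread, 7 of the 40 were called, all lower. Changes are relative to the bulk of genes. With library totals the median of all genes moved to 0.40 in both genotypes, and that of the members to 0.88 in Yap/Taz KO and 0.33 in ctrl.

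Iigp1 fell most. It had 377, 301 and 222 CPM in ctrl + CCl4, against 651, 923 and 1045 CPM in ctrl. Every injured library stood below every uninjured one, and it fell by 1.54 on the log2 scale (SE 0.26, edgeR adjusted p = 0.000647). H2-K1 had 693, 681 and 837 CPM in ctrl + CCl4, against 1533, 1914 and 1773 CPM in ctrl. It fell by 1.24 (SE 0.25, edgeR adjusted p = 0.00238), with groups far apart. B2m had 2176, 1879 and 2161 CPM in ctrl + CCl4, against 3658, 3413 and 4648 CPM in ctrl. It fell by 0.92 (SE 0.22, edgeR adjusted p = 0.00851) without overlap, and with library totals by 0.53 (edgeR adjusted p = 0.0741).

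Irf1, the factor through which interferon gamma reaches MHC class I genes, had 50.9, 47.0 and 54.8 CPM in ctrl + CCl4, against 129.6, 94.1 and 86.0 CPM in ctrl. It fell by 1.02 (SE 0.29, edgeR adjusted p = 0.0184), and the groups did not overlap. The call ended with library totals (-0.65, edgeR adjusted p = 0.151), and when ctrl library 1 was left out (-0.82, edgeR adjusted p = 0.0519), or any 1 of the ctrl + CCl4 libraries (0.0518 to 0.0778). Of the other MHC class I members, H2-D1 was at -0.24 and Tap1 at 0.46 (log2). Reads of H2-K1 and H2-D1 could be split in counting where their sequences match, so their separate values are uncertain.

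The GTPases of the IRG and GBP families lay low in the injured controls. Of 8 tested members, 7 had log2 fold changes below 0 (87.5%, beside 48.3% of all genes; 6 of 8 with library totals), and Iigp1 was called. Irgm2, a regulator of the other IRG GTPases, had 34.1, 23.5 and 30.6 CPM in ctrl + CCl4, against 64.6, 54.4 and 71.1 CPM in ctrl. The groups did not overlap, and the log2 fold change was -1.11 (SE 0.40, edgeR adjusted p = 0.0589). Irgm2 was called in 7 of 20 alternatives, among them DESeq2 (0.0427), limma-voom (0.0329), the replicate block (0.0189), the 6 compared libraries alone (0.0174), and leaving out Yap/Taz KO library 1 (0.0131) or 2 (0.0352). Ifi47, an IRG GTPase as well, had 36.6, 25.9 and 28.7 CPM in ctrl + CCl4, against 57.2, 64.4 and 50.5 CPM in ctrl, also apart, with a log2 fold change of -0.92 (edgeR adjusted p = 0.0973), called in 4 of 20 alternatives, including the replicate block (0.0309), the 6 compared libraries alone (0.0373) and the fit without Yap/Taz KO library 1 (0.0394). Igtp was at -0.90, Gbp3, Gbp7 and Gbp2 between -0.38 and -0.28, and Irgm1 at 0.33 (log2). The annotated spans of Igtp and Irgm2 overlap on the same strand of chromosome 11. The last 500 bases of each, however, held no exon of another gene. The Gbp genes are close paralogs, so their reads may be split.

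The 4 members that rose in the knockout did not pass the threshold in the controls. Dhx58 had 10.3, 15.6 and 9.99 CPM in ctrl + CCl4, against 6.58, 6.54 and 10.7 CPM in ctrl, overlapping in part, and its change of 0.61 (log2, SE 0.44) had an edgeR adjusted p of 0.353. Zbp1 was at 0.53 and Ifi44 at 0.60 (log2; edgeR adjusted p = 0.626 and 0.37). Rtp4 had 46.5, 70.8 and 41.6 CPM in ctrl + CCl4, against 67.9, 38.2 and 57.6 CPM in ctrl, fully mixed, with a log2 fold change of -0.04. Ifit1, whose window holds 2 ISRE cores on the opposite strand, had 23.4, 25.6 and 9.99 CPM in ctrl + CCl4, against 30.4, 52.3 and 49.0 CPM in ctrl. Its groups did not overlap, and the log2 fold change of -1.15 (SE 0.48) did not pass (edgeR adjusted p = 0.1). It was called with no low-count filter (0.00957) and without Yap/Taz KO library 1 (0.0401). Of the abundant members of the other roles, Ifih1 was at 0.14, Ddx58 at 0.12, Irf9 at -0.50, Isg15 at 0.65, Usp18 at -0.56, Oasl1 at -0.02, Oasl2 at 1.01 and Bst2 at 0.30 (log2), without a call.

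**Figure D2:**
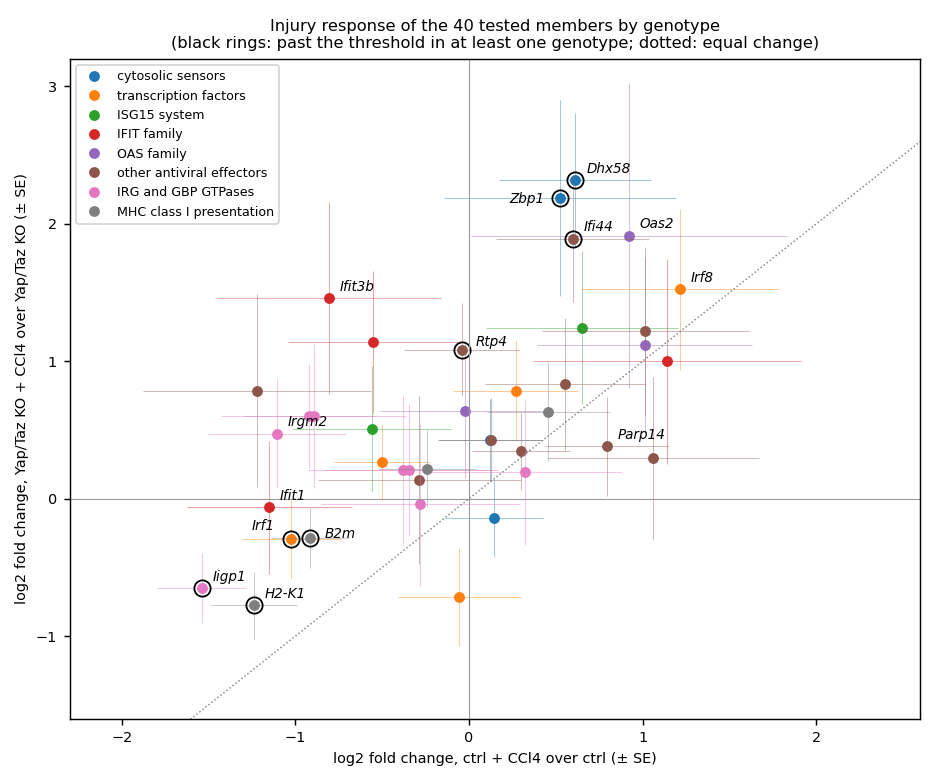
Log2 fold change after CCl4 of the 40 tested members, in Yap/Taz KO on the vertical axis and in ctrl on the horizontal axis, with whiskers of 1 SE and colours by role. Most points lie above the dotted line of equal change: Dhx58 is at 2.32 in Yap/Taz KO and 0.61 in ctrl, and Iigp1 at -0.65 and -1.54.

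Whether the 2 injury responses differ was tested directly as their difference, Yap/Taz KO minus ctrl. No member passed the threshold by edgeR, nor did any of the 10780 genes (0%), and DESeq2 and limma-voom also called 0 members. At an unadjusted p under 0.05, 7 members were higher and 0 lower, beside 4.54% and 3.57% of all genes. The difference was above 0 for 34 of 40 members (85%), beside 53.9% of all genes, and below 0 for 6 (15%), beside 46.1%, and its median was 0.57 beside 0.07. Leaving out 1 library at a time, the median lay between 0.30 and 0.91, with the lowest value without Yap/Taz KO library 2 and the highest without Yap/Taz KO library 1. The 7 members were Ifi47 (1.52, SE 0.53), Irgm2 (1.58, SE 0.56), Dhx58 (1.71, SE 0.66), Iigp1 (0.89, SE 0.36), Ifit3 (1.69, SE 0.71), Ifit3b (2.27, SE 0.95) and Rtp4 (1.13, SE 0.47), on the log2 scale. Their edgeR adjusted p lay between 0.567 and 0.594. MHC class I was above 0 for 4 of 4 members, from 0.18 for Tap1 to 0.63 for B2m, and the IFIT family for 3 of 4.

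The next comparison asks what the knockout, with its vector, changes in uninjured hepatocytes. In Yap/Taz KO against ctrl, edgeR called 0 members and 0 of all genes (0%), and DESeq2 and limma-voom called 0 members. At an unadjusted p under 0.05, 11 members were lower (27.5%) beside 5.4% of all genes, and 0 were higher beside 4.06%. The log2 fold change was below 0 for 34 of 40 members (85%) beside 52.9% of all genes, with a median of -0.53 beside -0.03. Without Yap/Taz KO library 2 the median was -0.29 and 2 members had an unadjusted p under 0.05. Without ctrl library 1 these were -0.36 and 8, and without Yap/Taz KO library 1 they were -0.90 and 19. The injury comparison in Yap/Taz KO and this one share the Yap/Taz KO libraries, so a low value there enters both.

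The groups did not overlap for 5 members (12.5%), all lower, beside 4.92% of all genes, and for 0 higher ones, beside 5.81%. They were Dhx58, Irf9, Ifit3b, Mx2 and Ifi47. Dhx58 had 3.25, 3.38 and 1.28 CPM in Yap/Taz KO, against 6.58, 6.54 and 10.7 CPM in ctrl, with a log2 fold change of -1.57 (SE 0.51, edgeR adjusted p = 0.406). Irf9, the DNA-binding partner of STAT2, had 51.4, 58.4 and 37.0 CPM in Yap/Taz KO, against 74.5, 101.0 and 89.6 CPM in ctrl. Every knockout library was below every control, and the log2 fold change was -0.85 (SE 0.28, edgeR adjusted p = 0.413). Mx2, an interferon-induced dynamin-like GTPase, had 3.25, 1.93 and 2.13 CPM in Yap/Taz KO, against 5.35, 11.1 and 7.82 CPM in ctrl, a change of -1.72 (log2, SE 0.70, edgeR adjusted p = 0.476).

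Ifi47 had 49.8, 15.4 and 21.7 CPM in Yap/Taz KO, against 57.2, 64.4 and 50.5 CPM in ctrl, where Yap/Taz KO library 1 came within 1 CPM of the lowest control. The neighbours Ifit3 and Ifit3b, with identical windows before their starts, lay low together. Ifit3 had 17.3, 4.34 and 4.68 CPM in Yap/Taz KO, against 30.9, 15.6 and 24.2 CPM in ctrl, with library 1 inside the control range, a change of -1.45 (log2, SE 0.52, edgeR adjusted p = 0.449). Ifit3b had 1.62, 0.483 and 2.98 CPM in Yap/Taz KO, against 6.58, 3.02 and 7.82 CPM in ctrl, from 11 and 33 counts over the groups, a change of -1.71 (log2, SE 0.71, edgeR adjusted p = 0.488). These genes are near-identical in part, so their reads may be split. The other members with an unadjusted p under 0.05 were Rtp4, Ifi44, Irgm2, Ifit1 and Irf1, between -0.62 and -1.17 (log2). B2m was at -0.32 and H2-K1 at -0.22 (edgeR adjusted p = 0.681 and 0.807). Without Yap/Taz KO library 1, the highest of its group for both, they were at -0.51 and -0.55 (edgeR adjusted p = 0.457 and 0.404).

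**Figure D3:**
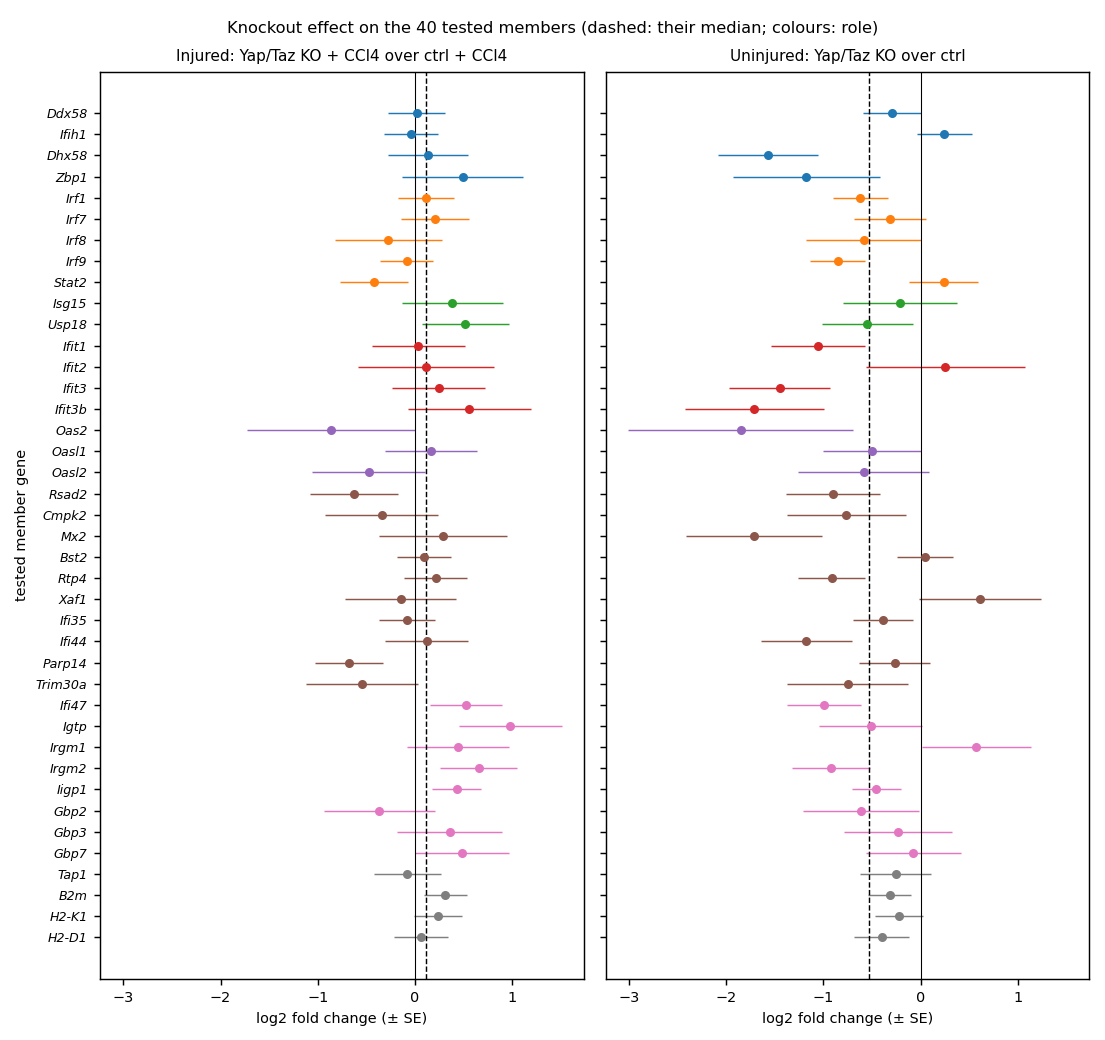
Log2 fold change of the 40 tested members between genotypes, Yap/Taz KO + CCl4 over ctrl + CCl4 on the left and Yap/Taz KO over ctrl on the right, with whiskers of 1 SE, colours by role and a dashed line at the median. The median is 0.12 in the injured groups and -0.53 in the uninjured ones, and no member passed the threshold in either.

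After injury the members' median log2 fold change between genotypes was smaller in size, 0.12 against -0.53 in uninjured hepatocytes. The difference of the injury responses, which is the same contrast, called 0 members and 0 of all genes (0%). Leaving out 1 library at a time put the uninjured median between -0.903 and -0.289. In Yap/Taz KO + CCl4 against ctrl + CCl4, edgeR called 0 members and 0 of all genes (0%), 0 members had an unadjusted p under 0.05 (4.07% of all genes were higher and 1.61% lower at that level), and DESeq2 and limma-voom called 0. The log2 fold change was above 0 for 26 of 40 members (65%), beside 49.1% of all genes, with a median of 0.12 beside -0.01 for all genes. That sign rests on the scaling and on 1 library, as the median was -0.03 with library totals and -0.07 without Yap/Taz KO + CCl4 library 1. Groups did not overlap for B2m, which was higher, and for Oasl2 and Trim30a, which were lower (2.5% and 5% of members, beside 8.5% and 7.81% of all genes). B2m had 2752, 2342 and 2607 CPM in Yap/Taz KO + CCl4, against 2176, 1879 and 2161 CPM in ctrl + CCl4, with a log2 fold change of 0.31 (SE 0.22, edgeR adjusted p = 0.986). Trim30a, an inducible TRIM protein, had 59.7, 62.6 and 35.2 CPM in Yap/Taz KO + CCl4, against 81.7, 67.1 and 81.2 CPM in ctrl + CCl4, with a log2 fold change of -0.55 (edgeR adjusted p = 0.992). The outermost values of the members were -0.86 for Oas2 and 0.98 for Igtp.

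Averaged over both injury states, the knockout effect called 0 members by edgeR, DESeq2 and limma-voom, beside 0.0186% of all genes by edgeR. At an unadjusted p under 0.05, 3 members were lower (Irf9, Rsad2 and Dhx58), beside 3.47% of all genes, and 0 were higher, beside 4.06%. Irf9 was at -0.47 (SE 0.20), Dhx58 at -0.72 (SE 0.33) and Rsad2, which encodes the antiviral enzyme viperin, at -0.76 (SE 0.33) on the log2 scale (edgeR adjusted p from 0.618 to 0.648). B2m and H2-K1 were at -0.01 and 0.01.

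Replicates of 1 group differed in these genes together. Yap/Taz KO + CCl4 library 1 was the highest of its group in 33 of 40 members (82.5%), beside 31.2% of all genes tested, and Yap/Taz KO library 1 in 30 of 40 (75%), beside 34.7%. Yap/Taz KO library 2 was the lowest of its group in 27 of 40 (67.5%), beside 34.3%. The mean log2 CPM of the 40 members was 5.14 ± 0.32 in Yap/Taz KO + CCl4, 5.07 ± 0.27 in ctrl + CCl4, 4.48 ± 0.64 in Yap/Taz KO and 5.08 ± 0.16 in ctrl (SD, n = 3). The 3 Yap/Taz KO libraries lay at 5.17, 3.90 and 4.38, so library 1 was inside the range of ctrl (4.91 to 5.22) and the others below it. The IRG and GBP GTPases had a mean log2 CPM of 6.02 in Yap/Taz KO library 1 and of 4.45 and 4.54 in libraries 2 and 3.

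**Figure D4:**
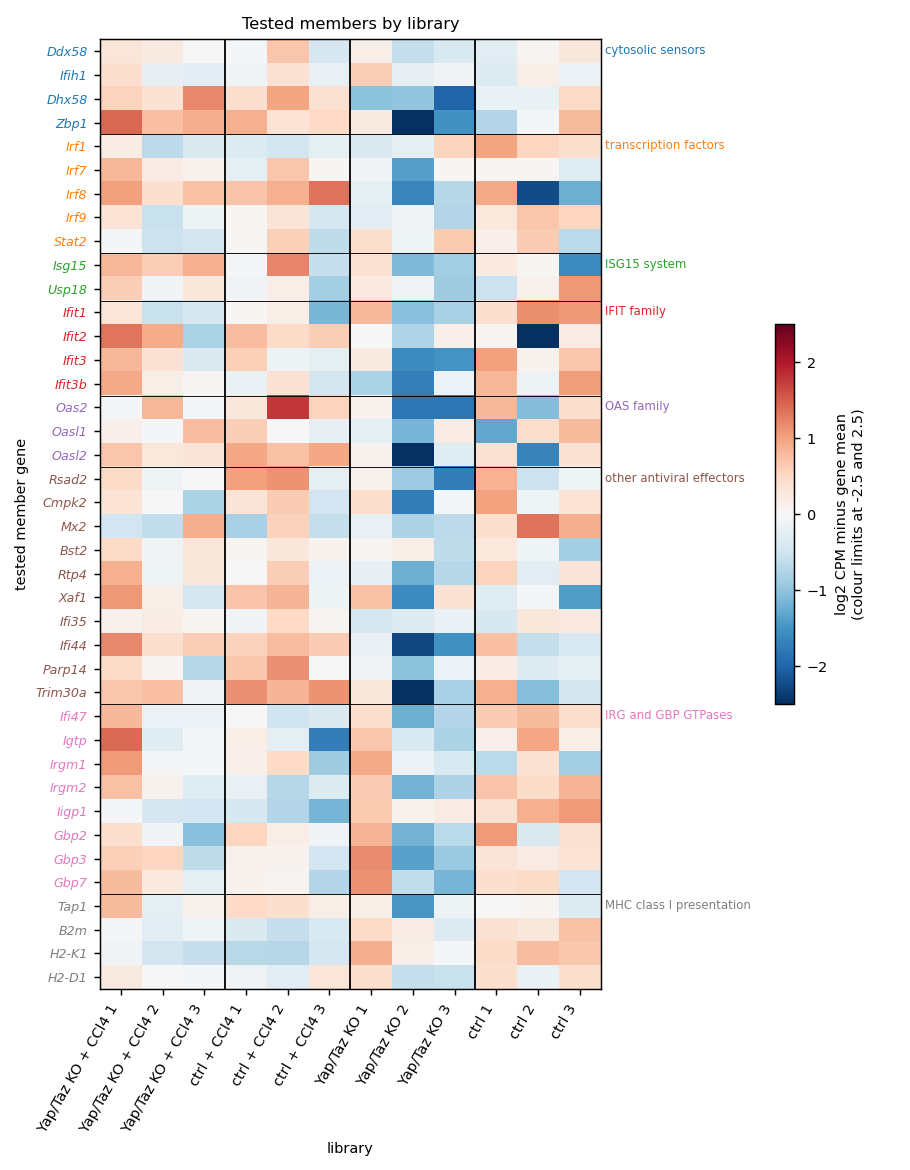
Log2 CPM of the 40 tested members minus each gene's mean over the 12 libraries, with genes down the page by role and libraries across it by group. Yap/Taz KO library 2 is below the gene mean for most genes and was lowest of its group in 27 of 40, while the GTPases are high in Yap/Taz KO library 1 and in Yap/Taz KO + CCl4 library 1.

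Markers of other cells moved along the same comparisons. The 12 macrophage and Kupffer cell markers summed to 2019 to 3050 CPM in Yap/Taz KO + CCl4, 2502 to 4388 CPM in ctrl + CCl4, 239 to 1151 CPM in Yap/Taz KO and 516 to 2795 CPM in ctrl. All 12 had counts in each group, but they did not move alike. Lyz2 had 1249, 581 and 1606 CPM in ctrl + CCl4 against 234, 48.3 and 82.5 CPM in ctrl. Clec4f had 89.7, 50.9 and 77.6 CPM in ctrl + CCl4 against 254, 39.8 and 82.5 CPM in ctrl. After injury 4 of the 12 rose in Yap/Taz KO and 3 in ctrl, and none fell. Of all genes tested, 9.42% rose in Yap/Taz KO and 10.5% in ctrl. Of the 10 monocyte and neutrophil markers, 8 could be tested, of which 8 rose in Yap/Taz KO and 5 in ctrl. Their sum was 174 to 248 CPM in Yap/Taz KO + CCl4 against 7.24 to 24.4 CPM in Yap/Taz KO, and 201 to 348 CPM in ctrl + CCl4 against 23.7 to 116 CPM in ctrl. Of the 10, 9 had counts in Yap/Taz KO + CCl4, ctrl + CCl4 and ctrl, and 8 in Yap/Taz KO. Ly6g was at 0 in all 4 groups. S100a8, of the same list, had 27.1, 15.5 and 19.8 CPM in Yap/Taz KO + CCl4 and 52.4, 22.3 and 34.8 CPM in ctrl + CCl4. Library by library, the macrophage sum was 1151, 239 and 574 CPM in Yap/Taz KO, with the same library highest and the same one lowest as for the members' mean. The order also matched in Yap/Taz KO + CCl4, with macrophage sums of 3050, 2173 and 2019 CPM and member means of 5.505, 4.99 and 4.914. It matched in ctrl as well, with 2795, 516 and 643 CPM and member means of 5.224, 4.914 and 5.09. In ctrl + CCl4 the order was the reverse: the macrophage sum was 3331, 2502 and 4388 CPM, where the members' mean log2 CPM was 5.14, 5.29 and 4.77. Irf8 in ctrl, at 89.3, 9.06 and 19.2 CPM, also followed the macrophage sum there. Without ctrl library 1, Irf8 rose in the injured controls, by 2.75 on the log2 scale (edgeR adjusted p = 0.000255), and so did Trim30a, by 1.84 (0.0359).

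Stellate cell markers summed to 1792 to 1991 CPM in Yap/Taz KO + CCl4 against 378 to 983 CPM in Yap/Taz KO, and to 1222 to 2224 CPM in ctrl + CCl4 against 406 to 1608 CPM in ctrl. Of 12 tested, 6 rose in Yap/Taz KO and 4 in ctrl, beside 9.42% and 10.5% of all genes. Endothelial markers summed to 1063 to 1356 CPM in Yap/Taz KO + CCl4 against 553 to 1442 CPM in Yap/Taz KO, and to 982 to 1203 CPM in ctrl + CCl4 against 676 to 2411 CPM in ctrl, with 0 of 12 called by edgeR in either. Within Yap/Taz KO, endothelial markers were highest in library 1 (1442 CPM) and lowest in library 2 (553 CPM), as the members' mean was. The 12 T and NK cell markers summed to at most 11.7 CPM in Yap/Taz KO + CCl4 and 11.7 CPM in ctrl + CCl4. The highest sum was 17.9 CPM in Yap/Taz KO and 19.7 CPM in ctrl. Counts were found for 10 of these markers in each injured group, 8 in Yap/Taz KO and 9 in ctrl, and Ncr1 was at 0 in each group. Plasmacytoid dendritic cell markers, counted without Bst2, a member, summed to 272 to 361 CPM in Yap/Taz KO + CCl4 against 41 to 125 CPM in Yap/Taz KO, and to 203 to 252 CPM in ctrl + CCl4 against 76.8 to 137 CPM in ctrl. Only 5 of these plasmacytoid markers could be tested, of which 1 rose in Yap/Taz KO and 3 in ctrl. The part of any of these cells in the members' values was not tested. Beside the falls of H2-K1, B2m and Iigp1 in ctrl, the macrophage sums of the injured and uninjured libraries overlapped through ctrl library 1. The hepatocyte markers summed to 82264 to 102808 CPM in ctrl + CCl4 against 139231 to 177115 CPM in ctrl. Of these 10 markers 7 were lower, beside 12% of all genes.

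**Figure D5:**
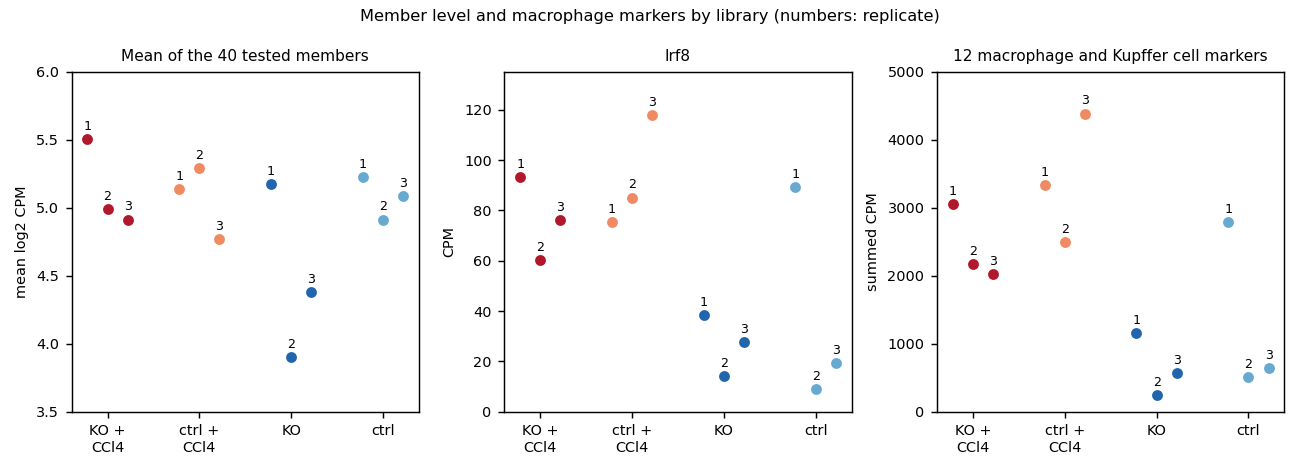
Values in each library (numbered by replicate) of the members' mean log2 CPM, of Irf8 in CPM and of the summed CPM of 12 macrophage and Kupffer cell markers, by group. In Yap/Taz KO, library 1 is highest and library 2 lowest in all 3 panels, and in ctrl library 1 stands apart in Irf8 (89.3 CPM) and in the macrophage sum (2795 CPM).

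Interferon transcripts were close to undetected. Ifnb1, Ifng, Ifnl2, Ifnl3 and the 4 interferon alpha genes followed (Ifna1, Ifna2, Ifna4 and Ifna5) had 0 counts in all 12 libraries, and Ifnk had 2 counts in 1 library. A count of 0 allows up to 3 counts in a library, and cells outside the sort were not measured. Of the receptor chains, Ifnar1, Ifnar2, Ifngr1, Ifngr2 and Il10rb passed the filter. Ifngr2, of the interferon gamma receptor, had 25.9, 25.0 and 17.9 CPM in Yap/Taz KO + CCl4, against 7.58, 13.0 and 9.79 CPM in Yap/Taz KO, and rose by 1.17 on the log2 scale (SE 0.34, edgeR adjusted p = 0.0264). Il10rb, shared by the lambda interferon and interleukin 10 receptors, rose by 1.88 there (SE 0.50, edgeR adjusted p = 0.017). Those 2 were 40% of the 5 tested, beside 9.42% of all genes higher in Yap/Taz KO. In ctrl none of the 5 was called.

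Signal transducers gave few calls. Of 12 tested genes of JAK-STAT signalling and its inhibitors, Ptpn1, a phosphatase that acts on JAK kinases, was the only call (8.33%, beside 9.42% of all genes higher in Yap/Taz KO and 10.5% in ctrl), higher by 0.96 in Yap/Taz KO (SE 0.21, edgeR adjusted p = 0.00547) and by 0.78 in ctrl (SE 0.21, edgeR adjusted p = 0.0148). Among 17 tested genes of nucleic acid sensing, 2 rose in Yap/Taz KO (11.8%) and 1 in ctrl (5.88%), beside 9.42% and 10.5% of all genes. Cgas, the cytosolic DNA sensor, rose by 2.86 in Yap/Taz KO (edgeR adjusted p = 0.0335) and by 2.45 in ctrl (edgeR adjusted p = 0.0205). Irf5 rose by 1.83 in Yap/Taz KO (edgeR adjusted p = 0.00963).

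Among 52 other interferon-stimulated genes tested, 8 rose and 0 fell in Yap/Taz KO, and 4 rose and 1 fell in ctrl, with medians of 0.63 in Yap/Taz KO and 0.33 in ctrl (log2). The shares were 15.4% higher in Yap/Taz KO, beside 9.42% of all genes, and 7.69% higher and 1.92% lower in ctrl, beside 10.5% and 12%. Ifi27l2b rose by 2.77 (SE 0.40, edgeR adjusted p = 0.000269) in Yap/Taz KO and by 2.77 (SE 0.41, edgeR adjusted p = 0.000256) in ctrl. Slfn9, of the Schlafen family, had 30.6, 40.4 and 19.2 CPM in Yap/Taz KO + CCl4, against 5.96, 0.965 and 0.426 CPM in Yap/Taz KO, and rose by 3.68 there and by 3.62 in ctrl. Ifi27l2a rose by 3.56 in Yap/Taz KO and by 1.83 in ctrl, and Nt5c3 by 1.43 in Yap/Taz KO. Gbp11, of the guanylate-binding protein family, had 10.6, 2.75 and 4.19 CPM in ctrl + CCl4, against 45.7, 69.4 and 33.4 CPM in ctrl, and fell by 3.10 (SE 0.63, edgeR adjusted p = 0.00253). Between genotypes 0 of the 52 were called in either injury state by edgeR.

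Of 23 tested genes of class I antigen processing, 2 rose (8.7%) and 3 fell (13%) in Yap/Taz KO, beside 9.42% and 8.35% of all genes, and 0 rose and 4 fell (17.4%) in ctrl, beside 10.5% and 12%. Psmb8, a catalytic subunit of the immunoproteasome, had 93.1, 73.6 and 71.3 CPM in Yap/Taz KO + CCl4, against 50.4, 22.2 and 22.1 CPM in Yap/Taz KO. It rose by 1.34 (SE 0.32, edgeR adjusted p = 0.00968), as did Psmb9 by 1.42 (edgeR adjusted p = 0.0352), while in ctrl Psmb8 was at 0.22 and Psmb9 at -0.78 (edgeR adjusted p = 0.674 and 0.208). The difference of the responses for Psmb8 was 1.12 (SE 0.45, edgeR adjusted p = 0.594), and for Psmb9, also an immunoproteasome subunit, 2.20 (SE 0.60, edgeR adjusted p = 0.533), neither past the threshold.

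The genes of that list that fell include non-classical class I chains. H2-Q10, a secreted class I chain made by the liver, had 1118, 1155 and 879.5 CPM in ctrl + CCl4, against 2100.3, 2493 and 2709 CPM in ctrl, and fell by 1.21 (SE 0.20, edgeR adjusted p = 0.000647). In Yap/Taz KO + CCl4 it had 1675, 1259 and 1742 CPM, against 2583, 2799 and 2461 CPM in Yap/Taz KO, and fell by 0.75 (SE 0.20, edgeR adjusted p = 0.0184). Cd1d1, which presents lipids to NKT cells, and Fcgrt, the neonatal Fc receptor, fell in both genotypes too, Cd1d1 by 0.88 in Yap/Taz KO and 1.62 in ctrl and Fcgrt by 0.62 in Yap/Taz KO and 0.76 in ctrl (log2), and H2-Q1 fell by 1.95 in ctrl. As with H2-K1 and B2m, these falls stood beside a lower sum of hepatocyte markers. Of 8 tested MHC class II and antigen presenting cell genes, Ctss and Itgax rose in Yap/Taz KO (25%, beside 9.42% of all genes). In ctrl, Itgax rose (12.5%, beside 10.5%).

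The 3 members below the filter are given from their pooled counts, with 95% intervals that cover counting error only. Mx1, an antiviral GTPase that is defective in many laboratory strains, had 30 counts over ctrl + CCl4 and 0 over ctrl. Set against a floor of 3 counts over ctrl, it was 6.39-fold higher. The lower 95% limit of the ratio to ctrl, from counting error, was 4.89. Mx1 was called higher in ctrl with no low-count filter (edgeR adjusted p = 0.00952) and in 9 of the 12 fits that left out 1 library, where it passed the filter, although its fitted fold change depends on the prior count. It had 18 counts in Yap/Taz KO + CCl4 and 5 in Yap/Taz KO, a ratio of 2.37 (0.848 to 8.17). Oas1a had 19 counts in Yap/Taz KO + CCl4 and 2 in Yap/Taz KO, a ratio of 6.26 (1.51 to 55.4), and 24 counts in ctrl + CCl4 and 7 in ctrl, a ratio of 2.19 (0.916 to 6.02). Oas3 had 19 counts in Yap/Taz KO + CCl4 and 1 in Yap/Taz KO, a ratio of 12.5 (1.99 to 519.9), and 19 counts in ctrl + CCl4 and 7 in ctrl, a ratio of 1.74 (0.698 to 4.88).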

How the data were processed

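RNA from sorted cells was made into 3′ tag libraries (QuantSeq 3′ FWD, per the labels' protocols), so counts report transcript 3′ ends and were not compared between genes. The deposited values are raw counts per gene, whole numbers that the authors did not normalize as far as the values show. Per the submitters' processing notes, the tools included FastQC, cutadapt and STAR 2.6.1d, with build GRCm38 (mm10). The counting program, the annotation release and the use of strand were not stated. Genes were matched by symbol, positions were taken from GENCODE M21, and Gbp6 was not analysed here.

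Genes past filterByExpr (minimum count 10, minimum total 15) entered edgeR 4.0.16 (R 4.3.3), with TMM factors, 1 mean per group over all 12 libraries, the quasi-likelihood F test and Benjamini-Hochberg adjustment over 10780 genes at 0.05. Log2 CPM used a prior count of 2. The fit was run on simulated data with 200 changed genes. These were drawn from the more abundant genes, so the run does not speak for members with few counts. The alternatives tried were limma-voom 3.58.1 and DESeq2 1.42.0, scaling by RLE factors or by library totals, a minimum of 5 CPM in 3 libraries or no low-count filter, a replicate block, a fit of only the 6 libraries compared, and leaving out each library in turn. Every member past the threshold is named, with the most abundant others of each role, and up to 4 genes of each further list. Other members were singled out after their values were seen. The members and lists were chosen with earlier results of these data known.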

Additional observations from a re-analysis of the deposited data

How the results depend on the processing

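Members called after injury in Yap/Taz KO numbered 5, against 8 with library totals and 8 with no low-count filter, and between 1 and 10 when 1 library was left out, with a median log2 fold change between 0.251 and 0.939. In ctrl they numbered 4 of the 40, against 10 with no low-count filter, 7 with a replicate block, and 3 to 7 when 1 library was left out. Mx1, outside the 40, was called higher in ctrl as well with no low-count filter and in 9 of 12 fits without 1 library. With no low-count filter 1 member was called between uninjured genotypes (Ifi44) and 1 in the difference of the responses (Irgm2), and the other alternatives called none in either. Directions turned for values that were not called. In Yap/Taz KO, Irf1 was at 0.049 with library totals and between -0.564 and 0.056 when 1 library was left out, and B2m at 0.106 with library totals. In ctrl, Rtp4 was at 0.307 with library totals, 0.03 with a replicate block, and between -0.278 and 0.155 when 1 library was left out. The cause was not tested. Whether replicate numbers pair the libraries was not settled. Of 18 same-numbered pairs, 7 correlated above 0.1 (range -0.152 to 0.323), and in 8 the same number was the best match. Dhx58 in Yap/Taz KO and Iigp1 and H2-K1 in ctrl were called in all 20 alternatives. Low counts limit most members, and where a leave-one-out fit left 2 libraries in a group the other groups supplied much of the spread.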
